A study of Homo sapiens with 16 samples.

Results

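The proteasome genes described here are those with a symbol of the PSMA to PSMG series, a number after the letter, and a protein-coding (NM) transcript on an autosome in the annotation that the authors deposited. The rule took 48 of the 18460 autosomal genes with such a transcript. Of the 48, 19 encode the core particle (PSMA and PSMB), 23 the regulatory particles (PSMC, PSMD and PSME) and 6 neither: the inhibitor PSMF1, the assembly chaperones PSMG1 to PSMG4, and PSMC3IP. PSMC3IP matched the symbol pattern but encodes a meiotic recombination factor and no proteasome subunit, and PSMD5 and PSMD9, counted as regulatory by symbol, are assembly chaperones. The X-linked PSMD10 lay outside the rule.

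ChIP-seq, in which the DNA pulled down with a protein is sequenced to map where that protein sat, was used for BCL11A and ZBTB7A, zinc-finger repressors of the fetal γ-globin genes, in 8 ChIP and 8 control libraries. BCL11A was measured with a V5 antibody in HUDEP-2, an immortalised human erythroid progenitor line, carrying a BCL11A-ER-V5 fusion that was induced for 24 h with 1e-07 M 4-hydroxytamoxifen (2 ChIP and 2 control libraries). The BCL11A signal therefore belongs to a tagged, induced protein. ZBTB7A was measured in K562, an erythroleukaemia line (4 ChIP and 4 control), and in HUDEP-2 ΔGγ cells, from which the Gγ-globin gene HBG2 was removed, whose γ-globin promoter was either WT or carried 195C>G (1 ChIP library and 1 control for each). Both ΔGγ lines thus lacked HBG2, and the number of clones behind each is not known here. The titles call the controls input whereas the antibody label names IgG, and which applies is unclear. Peak lists hold no expression levels, so the cell identities could not be checked against markers.

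The 4 deposited lists, named here by their cells or protein, held 12911 (BCL11A), 17331 (K562), 36435 (WT) and 18784 (195C>G) regions after identical regions were counted once. The BCL11A and K562 lists pool their replicates, and each ΔGγ list rests on 1 library. No replicate error could therefore be had for any value below, no test was run, and the depth of every library is unknown. A region was called a promoter region of a gene when it was centred within 1 kb of a start of that gene, the centre being the summit (WT, 195C>G) or the midpoint (BCL11A, K562). Ranks count from the strongest region of a list, by the deposited score (BCL11A) or signal (WT, 195C>G). The K562 list has no value per region and its ranks are its file order, which was taken to run from strong to weak. In that order, overlapping regions at PSMD1 held consecutive ranks, 14414 and 14415. Whether the order follows strength throughout was not tested. Scores, signals and ranks were read only within their own list.

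The proteasome is the large protease that degrades proteins tagged with ubiquitin. Its core particle is a barrel of stacked rings, with outer rings of alpha subunits (PSMA) and inner rings of beta subunits (PSMB), some of which cut peptide bonds. A regulatory particle of ATPases (PSMC) and other subunits (PSMD) recognises, unfolds and feeds in the substrate, and alternative activators (PSME) can take its place. Erythroid cells break down much of their protein content during terminal maturation, and the proteasome takes part in this.

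The promoters below are shown because they carry the contrast among the members. PSMG1, PSMC3, PSME4 and PSME2 had the best summed ranks among members with a region in all 4 lists. They are given 5′ to 3′ on the gene's strand, from the RefSeq promoter table (GRCh38.p14), limited to bases upstream of the start that lie in no annotated exon. Capitals mark matches, on either strand, to any of 6 letter strings searched: TGACCA, reported for BCL11A, GACCC and CCTTCCCC, reported for ZBTB7A, CCAAT, bound by NF-Y, TGACNNNGC, the core of the antioxidant response element, and CCGGAA, bound by ETS factors. GACCC and TGACCA can share bases with TGACNNNGC, and each match was counted.
PSMG1: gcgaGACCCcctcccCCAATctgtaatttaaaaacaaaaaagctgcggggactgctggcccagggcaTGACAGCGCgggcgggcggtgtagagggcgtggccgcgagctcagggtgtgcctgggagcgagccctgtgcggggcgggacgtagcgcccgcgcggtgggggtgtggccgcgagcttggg
PSMC3: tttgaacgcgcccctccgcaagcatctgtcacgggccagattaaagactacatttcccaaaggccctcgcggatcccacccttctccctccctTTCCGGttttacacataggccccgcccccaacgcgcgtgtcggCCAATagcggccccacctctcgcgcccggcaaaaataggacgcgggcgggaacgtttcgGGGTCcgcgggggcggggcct
PSME4: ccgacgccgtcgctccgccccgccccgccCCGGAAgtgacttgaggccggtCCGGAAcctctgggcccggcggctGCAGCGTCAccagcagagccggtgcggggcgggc
PSME2: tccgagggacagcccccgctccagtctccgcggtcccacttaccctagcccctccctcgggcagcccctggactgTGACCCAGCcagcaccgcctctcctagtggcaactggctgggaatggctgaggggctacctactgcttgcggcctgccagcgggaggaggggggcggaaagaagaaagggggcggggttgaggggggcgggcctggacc
These stretches lie on the minus strand at chr21:39183515-39183701 (PSMG1), chr11:47426474-47426689 (PSMC3), chr2:53970994-53971102 (PSME4) and chr14:24146647-24146860 (PSME2). In PSME2 the GACCC match lies inside the TGACNNNGC match. The K562 region covered all 187 printed bases of PSMG1, 199 of 216 of PSMC3, 47 of 109 of PSME4 and all 214 of PSME2. The BCL11A region covered all 109 bases of PSME4, 126 of PSMC3, 15 of PSMG1 and none of PSME2. WT and 195C>G regions covered 183 and 161 bases of PSMG1, 22 and none of PSME4, and 167 and 190 of PSME2. Their cover of PSMC3 was not counted, as their chromosome 11 differs.

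PSMA2 and PSMA3, alpha-ring subunits, are the first members by name with a promoter region in no list, and are shown beside the bound promoters.
PSMA2: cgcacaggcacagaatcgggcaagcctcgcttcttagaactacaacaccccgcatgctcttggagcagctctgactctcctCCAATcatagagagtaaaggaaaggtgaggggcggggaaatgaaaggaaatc
PSMA3: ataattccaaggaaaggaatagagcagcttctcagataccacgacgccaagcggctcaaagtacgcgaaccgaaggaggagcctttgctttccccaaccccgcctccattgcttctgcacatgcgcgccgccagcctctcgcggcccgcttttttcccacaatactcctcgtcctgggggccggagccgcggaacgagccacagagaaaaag
They lie at chr7:42932207-42932339 (minus strand) and chr14:58244593-58244804 (plus strand). PSMA2 held 1 CCAAT and PSMA3 none of the 6 strings in these bases. The whole entry of PSMA3 in the promoter table held 2 CCAAT, outside the printed bases. Among the bound promoters above, the whole entry of PSMC3 held 2 GACCC and that of PSME4 3 CCGGAA, also more than the printed bases show.

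Among the members, the regulatory subunit PSMD6 had the ZBTB7A region of best rank in the WT list, and PSMD11 in each of the other ZBTB7A lists. PSMD7, also regulatory, had the strongest BCL11A region. These 3 sequences were chosen after their values were seen.
PSMD11: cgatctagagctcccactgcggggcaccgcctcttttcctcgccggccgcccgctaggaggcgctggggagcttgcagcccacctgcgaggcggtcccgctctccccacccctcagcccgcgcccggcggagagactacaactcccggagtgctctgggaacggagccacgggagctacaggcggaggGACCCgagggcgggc
PSMD6: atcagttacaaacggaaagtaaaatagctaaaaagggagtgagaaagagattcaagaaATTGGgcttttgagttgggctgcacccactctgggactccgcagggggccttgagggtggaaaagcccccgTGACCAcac
PSMD7: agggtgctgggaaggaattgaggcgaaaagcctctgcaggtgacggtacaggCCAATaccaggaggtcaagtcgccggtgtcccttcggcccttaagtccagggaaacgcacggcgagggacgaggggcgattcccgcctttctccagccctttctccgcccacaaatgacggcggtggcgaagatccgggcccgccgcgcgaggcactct
They lie at chr17:32444260-32444462 (PSMD11, plus strand), chr3:64023607-64023744 (PSMD6, minus strand) and chr16:74296564-74296774 (PSMD7, plus strand). In every one of the 3 ZBTB7A lists a region covered all 203 printed bases of PSMD11 and all 138 of PSMD6, and BCL11A covered neither. The reverse held at PSMD7, where a BCL11A region covered all 211 bases and no ZBTB7A region reached them. PSMD6 carried TGACCA without a BCL11A promoter region, and PSMD7 had a BCL11A region without TGACCA in these bases. The whole promoter entries of PSMD11, PSMD6 and PSMD7 also held 2, 1 and 1 CCGGAA outside the printed bases.

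Promoter regions were found at 17 of the 48 members for BCL11A (35.4%, exact 95% interval 22.2 to 50.5), beside 25.2% of all genes. ZBTB7A promoter regions lay at 24 members in K562 (50.0%, 35.2 to 64.8; all genes 34.0%), 33 in WT (68.8%, 53.7 to 81.3; all genes 46.1%) and 22 in 195C>G (45.8%, 31.4 to 60.8; all genes 30.1%). The intervals cover counting error only. In the K562, WT and 195C>G lists the share of all genes lay below the members' interval, and in the BCL11A list within it. At 9 members a region was present in all 4 lists (18.8%; all genes 10.5%) and at 9 in none (18.8%; all genes 43.9%). At 18 members (37.5%; all genes 20.7%) all 3 ZBTB7A lists had a region, and at 3 (6.25%; all genes 2.89%) only the BCL11A list had one.

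The core and the regulatory genes differed in these counts. Of the 19 core genes, 2 had a BCL11A promoter region (10.5%, 1.3 to 33.1), against 11 of the 23 regulatory genes (47.8%, 26.8 to 69.4). In K562 the counts were 7 core genes (36.8%) and 11 regulatory genes (47.8%), in WT 9 (47.4%, 24.4 to 71.1) and 19 (82.6%, 61.2 to 95.0), and in 195C>G 6 (31.6%) and 11 (47.8%). All 4 pairs of intervals overlapped. The 9 members without a region in any list were all core genes, 47.4% of that group (24.4 to 71.1) beside 43.9% of all genes. None of the 23 regulatory genes lacked a region in every list, which allows a share of up to 14.8%, and these last intervals did not overlap. Of the 14 genes PSMA1 to PSMA7 and PSMB1 to PSMB7, 5 lacked a region in every list (35.7%, 12.8 to 64.9). That interval did overlap the regulatory one. The other core genes without a region were PSMA8, PSMB8, PSMB9 and PSMB11. Of the 23 regulatory genes, PSME3 was counted only by a WT region of signal 16.1, near the list minimum of 15.0. PSMC6 was counted only by a K562 region 716 bp upstream. Without the members that have a copy on another sequence, described below, 7 members had no region in any list. Of the 6 genes in neither group, 4 had a region in BCL11A, 6 in K562 and 5 each in WT and 195C>G. Against the shares of all genes given above, the core shares in the 3 ZBTB7A lists and in none lay near the background, and the background lay inside each core interval, that for BCL11A included. The difference between core and regulatory genes was not tested.

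**Figure D1:**
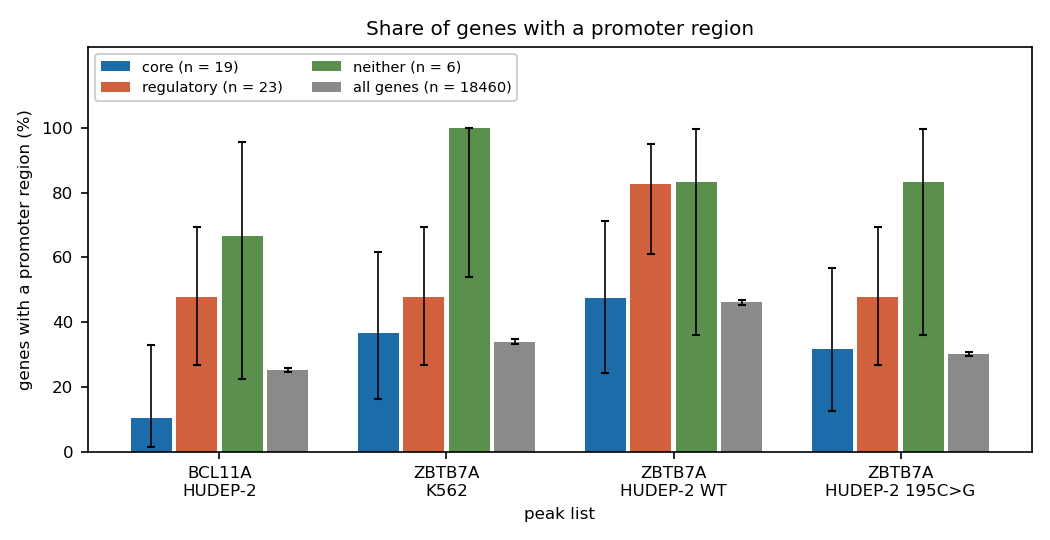
Share of genes (vertical axis, percent) with a promoter region in each peak list (horizontal axis), for core, regulatory and other members and for all autosomal genes, with exact 95% binomial intervals as error bars. The core bar for BCL11A stands at 10.5% and the regulatory bar for WT at 82.6%.

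For 3 core genes the WT and 195C>G lists cannot be read as lacking a region. PSMB3, PSMB8 and PSMB9 have a copy on an alternate or unplaced sequence, as have 791 of all genes. Of those 791 genes, 28 (3.54%) had a WT promoter region and 17 (2.15%) one in 195C>G, against 48.0% and 31.4% of the genes without a copy. Of the same 791 genes, 136 (17.2%) had a BCL11A region and 198 a K562 region, against 25.6% and 34.4% without a copy. PSMB8 and PSMB9 lie in a stretch of chromosome 6 of 5.08 Mb in which neither the WT nor the 195C>G list held any region, whereas the K562 list left a gap of 0.0189 Mb there. Without these 3 genes, 33 of 45 members (73.3%) and 9 of 16 core genes (56.2%) had a WT region, and 22 of 45 members had a 195C>G region.

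Among the alpha-ring genes, PSMA1, PSMA4 and PSMA7 had a promoter region in each ZBTB7A list and PSMA2, PSMA3, PSMA5 and PSMA6 in no list. PSMA1 was the only alpha-ring gene with a BCL11A region. Its BCL11A regions ranked 5832 (score 32.1, chr11:14519947-14520316, 314 bp inside its main start) and 9176 (score 20.7, 94 bp upstream of its distal start). The K562 region, rank 4380, and the best WT region, rank 1710 with a signal of 86.0, sat 348 and 321 bp upstream of the distal start. At that start PDE3B begins 89 bp away on the opposite strand, and both regions lay nearer to PDE3B. WT also had a weak region over the main start of PSMA1, rank 22086 with a signal of 22.2, and 195C>G had only the one at the distal start (rank 6994, signal 47.1). All 4 lists thus had a region at the distal start, and BCL11A and WT also had one at the main start.

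PSMA4 regions lay over its starts in all 3 ZBTB7A lists, at rank 4977 in K562, 3963 in WT (signal 60.5) and 3710 in 195C>G (signal 63.9). At PSMA7 the regions lay inside the gene, 718 bp from the start in K562, 748 bp in WT and 722 bp in 195C>G. Their ranks were 15488, 19901 and 5338. The PSMA7 region thus stood late in the K562 file order, in the weaker part of the WT list and in the stronger part of the 195C>G list. Ranks from lists of different length show no change.

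Of the 7 constitutive beta-ring genes, none had a BCL11A promoter region (exact 95% interval up to 41.0%), beside 25.2% of all genes. PSMB4 had a region in all 3 ZBTB7A lists, at rank 2685 in K562, 4323 in WT (signal 58.3) and 4140 in 195C>G (signal 60.8), each over its start. PSMB5, PSMB6 and PSMB7 encode the subunits that cut peptide bonds. Their WT regions were weak to moderate, with signals of 17.8, 28.0 and 19.4 beside a list median of 25.6, and PSMB7 alone also had a 195C>G region (signal 28.4, list median 40.0). The PSMB1 regions in K562 (rank 10299) and WT (rank 20228) lay 994 and 996 bp upstream of PSMB1 and 10 and 8 bp from a start of TBP, the TATA-binding protein gene. PSMB3 had a K562 region alone, 927 bp upstream at rank 9867, and PSMB2 had none.

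The immunoproteasome genes encode the catalytic subunits that replace the constitutive ones after interferon. PSMB10 had a region in all 4 lists, whereas PSMB8 and PSMB9 had a promoter region in none. The BCL11A region of PSMB10 was the third strongest of the members in that list, at rank 1547 with a score of 88.3 (chr16:67935922-67936123). It lay 855 bp inside the gene, and the best regions of K562 (rank 7798), WT (rank 6470, signal 47.8) and 195C>G (rank 11729, signal 35.1) overlapped it at 942, 921 and 953 bp. Each ZBTB7A list held a further region nearer to the PSMB10 start, at 157 bp in K562, 105 bp in WT and 132 bp in 195C>G. Near PSMB9 the K562 list had 1 region inside the gene beyond the promoter window, at rank 5886 (chr6:32857628-32857876). The testis form PSMA8 and the thymus form PSMB11 had no promoter region in any list, and their nearest regions lay 42.5 to 43.8 kb and 7.27 to 15.3 kb away.

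**Figure D2:**
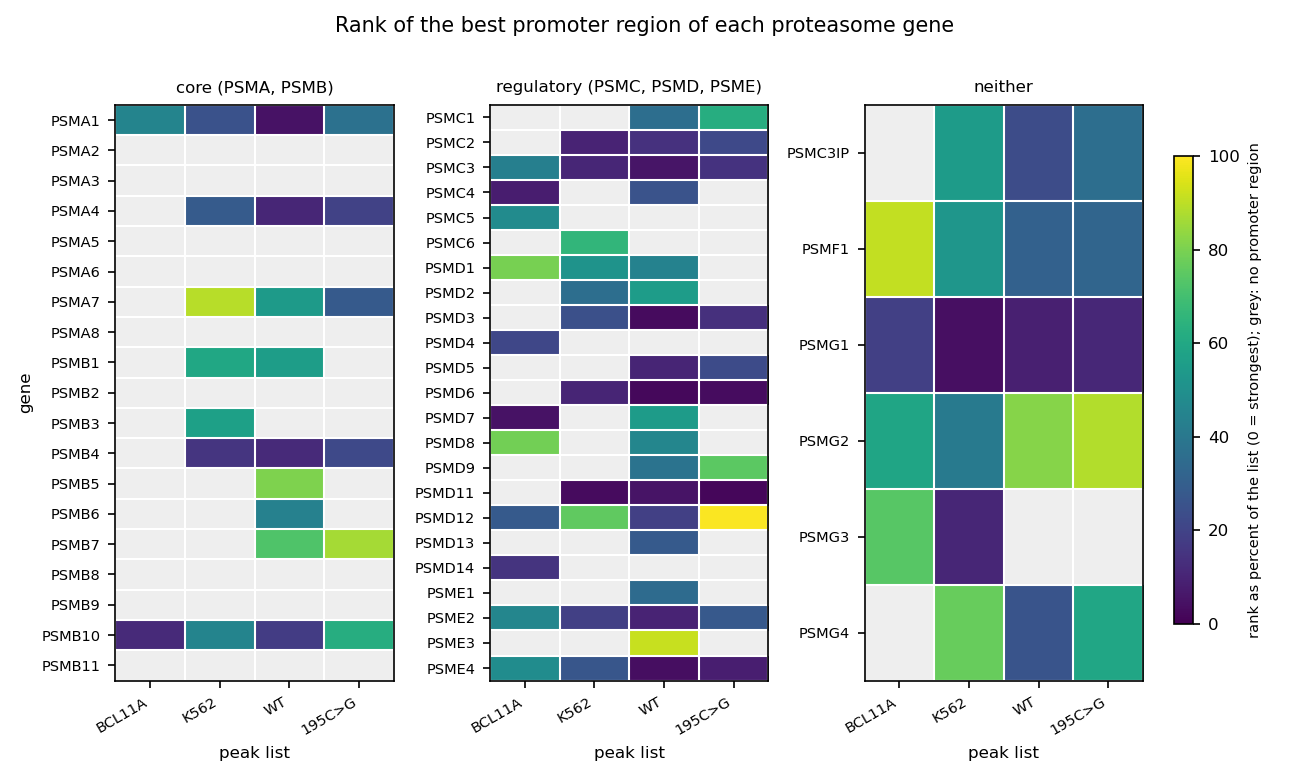
Rank of the best promoter region of each member (rows) in each peak list (columns), as a percentage of that list's length, dark for strong and yellow for weak, with grey where there was none. All 9 genes that are grey in every list are in the core panel, and PSMD11 and PSMD6 are dark in the 3 ZBTB7A lists.

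Among the ATPases, which form the ring that unfolds the substrate, PSMC3 had a region over its start in all 4 lists. It ranked 5548 for BCL11A (score 33.6, chr11:47426230-47426599), 1856 in K562 (chr11:47426290-47426672), 2047 in WT (signal 80.2) and 2743 in 195C>G (signal 72.8). The WT and 195C>G lists place it at chr11:47421189-47421832 and chr11:47421228-47421827 on the modified chromosome 11 without HBG2. PSMC3 was thus well above the list median signal in both HUDEP-2 ΔGγ lists. PSMC2 had regions in the ZBTB7A lists only, the third best of the members in K562 (rank 1695, chr7:103347434-103347752, 69 bp inside the start). In WT its signal was 53.1 and in 195C>G 60.5.

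PSMC4 was the second strongest member for BCL11A, at rank 1038 with a score of 114 (chr19:39971082-39971329, 200 bp inside the start). An overlapping WT region ranked 9367 (signal 39.0), and neither K562 nor 195C>G had a promoter region there. PSMC5 had a BCL11A region alone, rank 6241 with a score of 30.3, spanning its start and that of FTSJ3, which begins 13 bp away on the opposite strand and lay nearer to the region's midpoint. PSMC1 had WT and 195C>G regions (signals 31.8 and 35.2) and PSMC6 a K562 region at rank 11435, 716 bp upstream. The 6 ATPase genes thus each showed a different combination of lists.

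The lid and base subunits include the members of best rank in every list. PSMD7, a lid subunit that pairs with the deubiquitinase PSMD14, had the strongest BCL11A region, at rank 639 with a score of 157 (chr16:74296501-74296822, 114 bp upstream). The list median score was 29.4. The only ZBTB7A region of PSMD7 was in WT, rank 19940 with a signal of 24.0, and it lay 870 bp inside the gene without touching the BCL11A region. PSMD14, which removes ubiquitin from the substrate, had a BCL11A region at rank 1964 (score 75.1, chr2:161308267-161308438, 77 bp inside the start) and no ZBTB7A region. PSMD4, a ubiquitin receptor, likewise had a BCL11A region alone (rank 2727, score 59.4).

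PSMD11, a lid scaffold subunit, ranked 480 in K562 (chr17:32444102-32444538), 1872 in WT (signal 83.0) and 365 in 195C>G (signal 141, chr17:32444232-32444476). The regions covered its start. It was the member of best rank in K562 and 195C>G. PSMD6, also of the lid, ranked 1821 in K562 (chr3:64023458-64023808), 828 in WT (signal 110, chr3:64023481-64023872) and 637 in 195C>G (signal 122, chr3:64023482-64023828). The 3 PSMD6 summits or midpoints lay within 27 bp of the start. PSMD3 ranked 4264 in K562, 1111 in WT (signal 99.8, chr17:39980192-39980505) and 2589 in 195C>G (signal 74.5), with regions 719, 394 and 334 bp upstream. None of these 3 lid genes had a BCL11A promoter region.

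PSMD12 had a region in all 4 lists, but of very unequal standing. It ranked 3685 for BCL11A (score 47.5, chr17:67366376-67366745), 13067 in K562, 6944 in WT (signal 46.1) and 18713 of 18784 in 195C>G (signal 25.8, where the lowest signal of the list is 25.7). Its place among the members of all 4 lists thus rests on a region at the bottom of the 195C>G list. PSMD1, the large base subunit, had a weak region in BCL11A (rank 10232, score 18.4) and regions near the middle of the list in K562 (rank 8896) and WT (rank 16218, signal 27.7). PSMD2, its partner in the base, had regions in K562 (rank 6236) and WT (rank 20129, signal 23.8) over its start. PSMD8 had a BCL11A region (rank 10163, score 18.5) and a WT region (signal 27.2), and PSMD13 a WT region alone (signal 36.8). The base assembly chaperones PSMD5 (signals 62.1 in WT and 59.5 in 195C>G) and PSMD9 (30.7 and 31.4) had regions in these 2 lists only. The start of HPD lies 120 bp from that of PSMD9, and both PSMD9 regions were nearer to HPD.

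All 4 activator genes had a WT region. PSME4, a large single-chain activator, ranked 6289 for BCL11A (score 30.1, chr2:53970791-53971160), 4628 in K562, 1357 in WT (signal 93.3, chr2:53971081-53971397) and 1602 in 195C>G (signal 89.9, chr2:53971196-53971384). It was the third best member in both ΔGγ lists. ACYP2 begins 263 bp from PSME4 on the opposite strand, and in every list the region was nearer to ACYP2. PSME2, an interferon-inducible activator subunit, ranked 5908 for BCL11A (score 31.7), 3257 in K562, 3653 in WT (signal 62.9) and 5282 in 195C>G (signal 54.0). Its BCL11A region lay 937 bp upstream, and all 4 regions were nearer to RNF31, which begins 229 bp away. PSME1, which assembles with PSME2, and PSME3, a nuclear activator, had a WT region alone, with signals of 32.3 and 16.1.

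The assembly chaperone PSMG1 was high in every list, at rank 2440 for BCL11A (score 63.7, chr21:39183342-39183529), 717 in K562 (chr21:39183511-39184065), 3259 in WT (signal 66.1) and 2120 in 195C>G (signal 80.6). The BCL11A midpoint lay 79 bp inside the gene and the ZBTB7A ones 274 to 327 bp upstream. PSMG2, with which PSMG1 pairs, had overlapping regions in all 4 lists upstream of a distal start. The BCL11A (rank 7584, score 25.3), WT (rank 29764, signal 17.6) and 195C>G (rank 16580, signal 28.1) regions there lay nearer to the start of SPIRE1. The K562 list had a region there at rank 11871, and its best PSMG2 region (rank 7053) lay 30 bp inside another start. PSMG3 had regions in BCL11A (rank 9559) and K562 (rank 1871) and PSMG4 in the 3 ZBTB7A lists (signals 38.9 in WT and 36.2 in 195C>G).

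PSMF1, which encodes an inhibitor of the core particle, had overlapping regions in all 4 lists, at rank 11710 for BCL11A (score 15.4, chr20:1118313-1118682), 9112 in K562, 11288 in WT (signal 34.9) and 6167 in 195C>G (signal 50.1). Inside the gene it had 4 further WT regions, 2 in 195C>G and 1 in BCL11A. PSMD2 had 1 further region inside the gene in BCL11A and in WT, and PSMA1, PSMB7 and PSMD1 had 1 each in WT. PSMC3IP had regions in the 3 ZBTB7A lists, 689 to 754 bp upstream (WT rank 8446, signal 41.2).

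The members' best promoter regions stood at a median of 45.2% of the way down the BCL11A list, beside 43.9% for all genes with a promoter region. For the ZBTB7A lists the medians were 32.3% and 37.5% (K562), 25.8% and 28.2% (WT), and 28.3% and 39.6% (195C>G). In the ZBTB7A lists the regulatory members had medians of 24.6% (K562), 25.7% (WT) and 22.2% (195C>G) and the core members 45.0%, 44.0% and 32.8%. In BCL11A the order was the other way, 43.0% for the 11 regulatory and 28.6% for the 2 core members. The members' regions were therefore placed near those of other genes in BCL11A and WT. The median distance from the start was 135 bp for members and 200 bp for all genes in BCL11A, and in the ZBTB7A lists 239 and 198 bp (K562), 226 and 234 bp (WT), and 238 and 259 bp (195C>G). For the 7 core members in K562 it was 718 bp, and 4 of these regions lay more than 500 bp from the start.

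Another gene's start lay within 1 kb of a start of 10 of the 48 members (20.8%), beside 14.6% of all genes. These are PSMA1 (PDE3B), PSMA2 (MRPL32), PSMA7 (SS18L1), PSMB9 (TAP1), PSMC5 (FTSJ3), PSMD9 (HPD), PSMD13 (SIRT3), PSME2 (RNF31), PSME4 (ACYP2) and PSMG2 (CEP76), all on the opposite strand. A BCL11A region lay at 5 of these 10 members and at 12 of the other 38, a K562 region at 5 and 19, a WT region at 7 and 26, and a 195C>G region at 6 and 16. Over all genes the shares with and without such a neighbour were 36.7% and 23.3% (BCL11A), 48.0% and 31.6% (K562), 65.6% and 42.7% (WT), and 43.3% and 27.9% (195C>G). At such promoters the gene to which a region belongs cannot be told apart.

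Of the 17 members with a BCL11A region, 11 (64.7%; all genes 61.1%) also had a K562 region and 13 (76.5%; all genes 77.4%) a WT region. These were 45.8% of the 24 members with a K562 region and 39.4% of the 33 with a WT region. Of the 24 members with a K562 region, 21 (87.5%; all genes 80.4%) also had a WT region, or 63.6% of the 33. Overlap of the regions themselves was counted next. Of the 49 WT promoter regions at members, 32 (65.3%) were overlapped by a 195C>G region, beside 62.6% of all WT promoter regions. All 25 of the members' 195C>G regions overlapped a WT region, beside 95.2%. Leaving out chromosome 11, where the builds differ, WT regions overlapped 24 of 29 K562 regions (82.8%; all promoter regions 73.2%) and 10 of 15 BCL11A regions (66.7%; 64.4%). K562 regions overlapped 10 of 18 BCL11A regions (55.6%; 42.6%), or 33.3% with 50% reciprocal overlap, and 195C>G regions 4 of 15 (26.7%; 42.3%). The exact 95% interval of every one of these member shares contained the share of all promoter regions.

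The WT and 195C>G lines were set side by side at the 33 members with a WT promoter region. A 195C>G region overlapped the best region of 22 of them (66.7%, 48.2 to 82.0), and the retention of all WT promoter regions of the same decile of WT rank would give 23.4. Over all genes with a WT promoter region, 63.7% also had one in 195C>G. No member had a 195C>G promoter region without a WT one. Of all genes with a 195C>G promoter region, 97.4% also had a WT one. All 15 members in the best 25% of WT ranks were overlapped (13.5 by rank), from PSMD6 with a WT signal of 110 to PSMC3IP with 41.2. In the next 25% of ranks 4 of 10 were overlapped (6.58 by rank) and below that 3 of 8 (3.3 by rank). By group the counts were 6 of 9 core genes (5.81 by rank), 11 of 19 regulatory genes (14.1 by rank) and 5 of 5 others (3.48 by rank).

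The 6 members in the better 50% of WT ranks without 195C>G overlap were PSMC4 (WT rank 9367, signal 39.0, chr19:39970558-39971201), PSMD13 (rank 10315, signal 36.8, chr11:236715-237358), PSME1 (rank 12773, signal 32.3, chr14:24136039-24136682), PSMB6 (rank 16014, signal 28.0, chr17:4795752-4796395), PSMD1 (rank 16218, signal 27.7, chr2:231056316-231056959) and PSMD8 (rank 16688, signal 27.2, chr19:38374169-38374812). Their signals lay between 27.2 and 39.0. All were above the median of the WT list (25.6), which their choice from the better 50% of ranks fixes. PSMC4 and PSMD8 are the 2 members on chromosome 19 with a WT promoter region. On that chromosome 46.7% of 1408 WT promoter regions were overlapped, against 64.5% of 11846 on the others. The weaker members without overlap were PSMD7, PSMD2, PSMB1, PSMB5 and PSME3. With 1 library a line, the line and the library cannot be told apart, and the 195C>G list holds fewer regions and starts at a higher signal (25.7) than the WT list (15.0). Their part in the missing overlaps was not tested.

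Proteasome genes outside the symbol series, and genes that control or serve the proteasome, were taken as a list of 24, chosen with earlier results of these data known. Of these, 16 (66.7%; all genes 25.2%) had a BCL11A promoter region and 14 (58.3%; all genes 34.0%) a K562 one. A WT region lay at 19 (79.2%; all genes 46.1%) and a 195C>G one at 15 (62.5%; all genes 30.1%). ADRM1, a ubiquitin receptor of the regulatory particle, stood above every member in the 3 ZBTB7A lists, at rank 445 in K562, 89 in WT (signal 195) and 71 in 195C>G (signal 209). NFE2L2, a transcription factor of the antioxidant response, ranked 193 in K562, 760 in WT (signal 113) and 2213 in 195C>G (signal 79.2). UBQLN4, which carries ubiquitin-tagged proteins to the proteasome, was the third of the list in K562 (rank 2073) and 195C>G (rank 3950), and ZFAND2A the third in WT (rank 1752). For BCL11A the best were UFD1 (rank 1731), a cofactor that extracts ubiquitin-tagged proteins, ADRM1 (rank 1811, score 79.5) and NFE2L2 (rank 1953, score 75.4). All 3 BCL11A ranks fell behind those of PSMD7, PSMC4 and PSMB10. POMP, the chaperone of core assembly, had a WT region alone (rank 13447, signal 31.3), and USP14 and SEM1 were the 2 of the 24 without a region.

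The 6 letter strings were counted in the whole promoter entries, 250 bases before to 50 after the start, of the 42 members in the table and of 13933 genes. PSMA7, PSMB1, PSMB6, PSMB7, PSMD4 and PSMG3 had no entry. TGACCA was found in 4 of 42 member promoters (9.52%; all promoters 9.06%), GACCC in 24 (57.1%; 52.4%) and CCTTCCCC in 2 (4.76%; 6.45%). The strings reported for BCL11A and ZBTB7A were thus about as common at members as elsewhere. CCAAT was found in 19 (45.2%; 35.9%), TGACNNNGC in 13 (31.0%; 14.2%) and CCGGAA in 19 (45.2%; 23.4%). CCGGAA lay in 16 of 22 regulatory promoters and 1 of 15 core promoters, and TGACNNNGC in 9 and 2.

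Of the 29 members with an entry and a WT promoter region, 18 had GACCC, and of the 13 without a region 6 had it; over all genes the shares were 57.9% and 47.4%. TGACCA was found in 1 of 15 members with a BCL11A region and 3 of 27 without (all genes 9.17% and 9.03%). CCGGAA was found in 15 of the 29 with a WT region and 4 of the 13 without (all genes 32.0% and 15.4%). For BCL11A it was found in 7 of 15 with and 12 of 27 without (30.5% and 20.8%), and for K562 in 10 of 21 and 9 of 21 (30.7% and 19.3%). The median GC content was 57.7% in core and 64.0% in regulatory promoters, beside 63.0% over all genes, 68.3% for all genes with a region in all 4 lists and 57.0% for those with none. The core genes without an entry, PSMA7, PSMB1, PSMB6 and PSMB7, each had a ZBTB7A region. The 15 core promoters therefore included all 9 members with no region in any list, whose median GC content was 58.0%. The median count of CpG (a C followed by a G) per entry was 21.0 for these 9 members (range 4 to 26). For all genes with no region in any list it was 9.0 (range 0 to 66). In median GC content the 9 members thus lay near other genes without a region, but in median CpG count they lay above them. GC content and CCGGAA thus moved with the core and regulatory groups, but group and the absence of regions are mixed in these values. Their part in the counts of regions was not tested.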

How the data were processed

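The authors deposited 4 peak lists. Trimmomatic 0.3.2, Bowtie2 2.2.9, Bowtie, Picard and bedtools and the builds GRCh38 and hg38 are named per the submitters' processing notes. The BCL11A list holds a deposited score per region, the K562 list no value, and the WT and 195C>G lists a deposited SPP signal, the −log10 of the false discovery rate (not used for ranking) and a summit. Per the deposited file names, the first pair are IDR (irreproducible discovery rate) sets over replicates and the second pair SPP calls. The peak caller of the IDR sets is not named there. Counts of regions move with each list's length and threshold. Both ΔGγ lists use a chromosome 11 without HBG2. For the hg38 lists, starts after HBG1 were moved by a fixed offset, the commonest difference from the RefSeq table of GRCh38.p14 (exact for 298 of 1095 genes), and taking them from that table (1219 of 1274 genes matched) was an alternative. Chromosome 11 was left out of overlaps across builds.

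Only standard chromosomes were used, identical regions counted once, overlap meant at least 1 bp, and coordinates are 1-based. Shares carry exact Clopper-Pearson 95% intervals for counting error only. Python 3.11.15, pandas 2.3.3, numpy 2.4.6, scipy 1.17.1 and matplotlib 3.10.9 were used, and the scripts were checked on simulated regions. Members, gene lists and motifs were chosen with earlier results of these data known. Every member is named. Those in all 4 lists, the 3 best in each list, and the better 50% of WT ranks without 195C>G overlap are given in full. Alternatives were windows of 500 bp and 5 kb, the stronger 50% of lists, other starts, midpoints or any overlap, leaving out PSMC3IP, 50% reciprocal overlap and, added after seeing the data, leaving out members with a copy on another sequence.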

Additional observations from a re-analysis of the deposited data

How the results depend on the processing

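No paired analysis was possible because the lists pool replicates or come from 1 library each and carry no value per replicate, and for the same reason leaving out a replicate was not run. Over 18 results, 120 of 131 alternative values stayed within 1.5 times the main count or within the 95% interval of the main share, and 11 moved. Some of the 120 could not move. Leaving out PSMC3IP cannot change a core, regulatory or BCL11A count. Midpoints in every list cannot change a BCL11A or K562 count, as both lists use them already. With a 500 bp window the core members with a promoter region fell to 1 in BCL11A and 4 in K562, and 14 members had none in any list. In the stronger 50% of each list, 15 members and 4 core members kept a K562 region, 5 core members a WT region, 5 members were in all 4 lists and 15 in none. In the stronger 50% of the WT list, 80% of the members' WT promoter regions were overlapped in 195C>G. Counting only the best region of the 25 members in that part, 76.0% were overlapped, and the retention of all WT promoter regions by rank would give 80.4%. With 50% reciprocal overlap, 20% of the BCL11A and 41.4% of the K562 regions at members were overlapped in WT, and 33.3% of the BCL11A regions in K562 (main 55.6%, within its interval). The lower counts follow by construction from fewer or narrower matches, and the cause of the 80% was not tested. Leaving out PSMB3, PSMB8 and PSMB9, an alternative chosen after seeing the data, moved no count beyond that limit. None of the 3 is regulatory or had a BCL11A, WT or 195C>G promoter region. Most of these counts were therefore fixed beforehand. The share of core genes with a WT region rose from 47.4% to 56.2%. Depth is unknown, so the absence of a region is no measure of absent binding, and the K562 ranks rest on file order.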
